A study of Homo sapiens with 4 samples.

Results

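Plasminogen activation was described in U87 glioma cells through 7 genes, namely the plasminogen activators PLAT and PLAU, the urokinase receptor PLAUR, the activator inhibitors SERPINB2 and SERPINE2, and the clade B serpins SERPINB6 and SERPINB8. These 7 of the 19314 genes listed were picked by symbol with their difference between the groups already known, so that difference is given here as a description without a test. All 7 had an FPKM value above 0 in every library. FPKM is a count of fragments scaled by transcript length and by the fragments of the library, so it can be compared between genes of a library. Between libraries the comparison is approximate, because FPKM does not sum to the same total in each. The total was 444265 and 438504 with knockdown and 424645 and 419861 with SCR, which matters most for small differences.

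U87 is an established line of human malignant glioma. RNA-seq gave 4 libraries, 2 labelled PTPRN knockdown and 2 labelled SCR, and both groups carried a hairpin vector of the pLKO.1 type. The knockdown cells carried a short hairpin against PTPRN, and the SCR cells a control hairpin matched to no human coding gene. Time after transduction, and whether the cells were a pool or a clone, were not given in the sources used here, and 1 hairpin was sequenced. PTPRN itself, a receptor-type phosphatase of secretory granules, had an FPKM of 12.09 and 11.68 with knockdown and of 84.84 and 85.02 with SCR (log2 fold change -2.74 ± 0.03 SE, limma adjusted p = 0.000148). The labels do not say that libraries of a group came from separate cultures, so that the p-values measure the spread between these libraries, which may be technical.

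Plasminogen is an inactive precursor that circulates in blood, and tissue plasminogen activator (tPA, from PLAT) and urokinase (uPA, from PLAU) cut it to plasmin, a broad protease that dissolves fibrin and opens extracellular matrix. The receptor encoded by PLAUR holds uPA at the cell surface, where plasmin formation is concentrated. Serpins stop these enzymes by trapping them in a covalent complex: PAI-2 (SERPINB2) and protease nexin-1 (SERPINE2) inhibit the activators, and the latter also thrombin, whereas the products of SERPINB6 and SERPINB8 are mostly intracellular inhibitors of other serine proteases. In gliomas the uPA system is best known for its place in invasion of brain tissue.

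A short DNA stretch is shown first for the members with a match to the AP-1 motif TGANTCA, since AP-1 is a long-known regulator of PLAUR and SERPINB2. RefSeq promoter windows (GRCh38.p14, from 250 bases before to 50 bases after a transcript start) were read for 6 of the 7 members, 11 windows in all. No window of PLAT was read, so what is said of the members and their motifs leaves PLAT out. The motif was searched on both strands, where it reads alike because it is its own reverse complement. It occurred in 7.71% of all 35116 windows. Among the members it occurred in the window of PLAUR (1 match), of SERPINB2 (1 match) and of SERPINB8 (2 matches), and in none of the 8 windows of PLAU, SERPINE2 and SERPINB6. In the stretches below, each written 5′ to 3′ along its gene with 11 bases on each side, capitals mark the match.
PLAUR, chr19:43670338-43670366, minus strand: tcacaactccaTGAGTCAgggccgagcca
SERPINB2, chr18:63887592-63887620, plus strand: gagtaaaatgtTGAATCActcaaaggaca
SERPINB8, distal match, chr18:63969885-63969913, plus strand: ggagtcaaacgTGAATCAacggtgaaaaa
SERPINB8, proximal match, chr18:63970042-63970070, plus strand: tcgaacggttcTGAGTCAtctgccggaag

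The match began at position -186 for PLAUR, -102 for SERPINB2, and -185 and -28 for SERPINB8, counted from the transcript start of each RefSeq window. PLAUR has an annotated start further upstream, so its match also lies within the first exon of a longer GENCODE 29 transcript, and the proximal match of SERPINB8 lies within an annotated first exon as well. The SERPINB2 window is shown at greater length because this gene had the largest difference of the members. Capitals mark, in order, an Ets match (AGGAAG read on the other strand), the AP-1 match and a TATA box (TATAAA), and the stretch ends before the exon that begins in this window. GENCODE 29 also lists a SERPINB2 transcript that starts further upstream, at 63871692, so the stretch lies within an intron of that transcript.
SERPINB2, chr18:63887455-63887699, plus strand: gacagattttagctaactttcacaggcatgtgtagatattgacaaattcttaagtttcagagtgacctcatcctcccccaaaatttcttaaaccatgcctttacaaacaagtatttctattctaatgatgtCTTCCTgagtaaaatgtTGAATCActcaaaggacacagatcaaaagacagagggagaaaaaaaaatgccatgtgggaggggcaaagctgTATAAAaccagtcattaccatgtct

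The TATA box began at position -30 of SERPINB2, and 11.5% of all windows held this motif on either strand. Among the members it also matched in the SERPINB8 window (at -142 and -140) and in a SERPINB6 window (at -1). The Ets motif is common, with a match in 33.6% of all windows, and it was also present once in the window of PLAUR and once in a window of PLAU. Neither the CRE TGACGTCA (1.85% of all windows) nor the NF-kappa B motif GGANTTTCC (1.64%) occurred in any of the 11 windows read. A SERPINE2 window held 7 matches to CCAAT on both strands, a motif present in 34.6% of all windows. The G and C content was 39% in the SERPINB2 window, the lowest of the 11, and up to 76.7% in a SERPINB6 window. These matches describe letters in fixed windows, and binding of any factor was not measured. Sites outside the windows were not searched, so a window without a match does not mean a gene without such a site.

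PLAT and SERPINE2 were lower with PTPRN knockdown, SERPINB2 was far higher, and the remaining members differed by less than 2-fold. In all 7 genes the knockdown and SCR libraries did not overlap, which also held for 75.6% of the 16595 genes tested, so nothing is read from that count. The levels with knockdown were above those with SCR for SERPINB2, PLAUR and SERPINB8, and below them for PLAT, PLAU, SERPINE2 and SERPINB6. A fold change of at least 2 was reached upward by 1 member (3.09% of all genes tested) and downward by 2 (4.74%). In bulk RNA fewer cells with a transcript and less transcript per cell cannot be told apart.

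**Figure D1:**
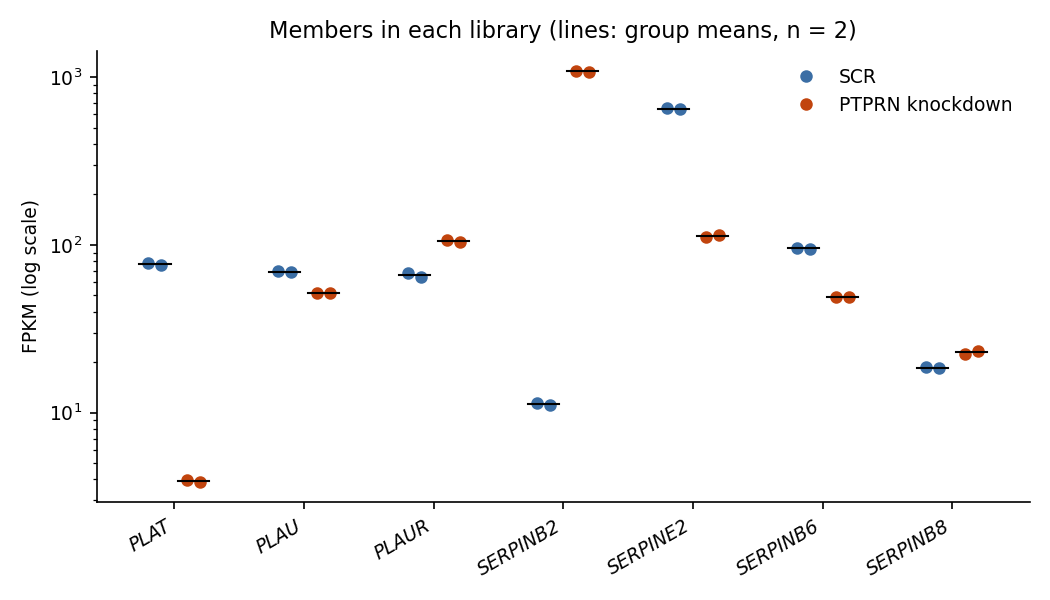
FPKM on a log axis of the 7 members in each library, with blue points for SCR, orange points for PTPRN knockdown and a line at the mean of each group (n = 2). The replicate points nearly coincide, SERPINB2 has a mean of 11.2 with SCR and of 1082 with knockdown, and PLAT and SERPINE2 lie lower in both knockdown libraries.

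Of the activators, PLAT had the larger difference. Its FPKM was 3.96 and 3.88 in the knockdown libraries and 78.03 and 76.11 in the SCR libraries. Both knockdown libraries thus lay far below both SCR libraries, with a mean of 3.92 ± 0.0566 against 77.1 ± 1.36 (SD, n = 2 each), 19.7-fold lower. On the log2(FPKM + 1) scale used for all fold changes the difference was -3.99 ± 0.03 (SE), which understates the change of low genes. By an estimate that takes the longest transcript, about 210 to 220 reads were behind the knockdown values and about 4200 to 4690 behind the SCR values. PLAT (Gene ID 5327) spans positions 42174718 to 42207724 of chromosome 8 on the minus strand of GRCh38, with 3 transcripts listed.

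PLAU, which encodes urokinase, had an FPKM of 51.31 and 51.46 with knockdown and of 70.16 and 68.54 with SCR. The SCR libraries were the higher ones, by 1.35-fold in the mean (51.4 ± 0.106 against 69.4 ± 1.15, SD, n = 2 each, log2 fold change -0.43 ± 0.03 SE). PLAU (Gene ID 5328, chr10:73911101-73917501, plus strand) shares 916 exon bases with C10orf55, which is read from the opposite strand and had an FPKM between 0.37 and 0.48. Whether reads were counted by strand was not given in the sources used here, so reads of the pair may be mixed, though the level of the partner was low in all 4 libraries.

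The activators therefore differed in their balance as well as in their sum. PLAT and PLAU together gave an FPKM of 55.3 ± 0.0495 with knockdown and of 146 ± 2.50 with SCR (SD, n = 2 each). PLAU made up 92.9% of that sum with knockdown and 47.4% with SCR, where PLAU and PLAT stood close to each other. The ratio of PLAU to PLAT was 12.96 and 13.26 in the knockdown libraries and 0.899 and 0.901 in the SCR libraries.

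PLAUR encodes the glycolipid-anchored uPA receptor (Gene ID 5329, chr19:43646095-43670346, minus strand). It had an FPKM of 107.4 and 104.09 with knockdown and of 67.96 and 64.27 with SCR. Both knockdown libraries were above both SCR libraries, 1.60-fold in the mean (106 ± 2.34 against 66.1 ± 2.61, SD, n = 2 each, log2 fold change 0.67 ± 0.04 SE). With a higher receptor level beside a lower ligand level, the ratio of PLAUR to PLAU was 2.06 ± 0.0498 with knockdown and 0.953 ± 0.0219 with SCR.

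SERPINB2 (Gene ID 5055, chr18:63887705-63903890, plus strand) encodes PAI-2, an inhibitor of uPA and tPA that is mostly kept inside the cell and is otherwise abundant in activated monocytes, keratinocytes and placenta. Its FPKM was 1084.42 and 1080.5 in the knockdown libraries and 11.4 and 11.04 in the SCR libraries. No other member had so wide a gap: the means were 1082 ± 2.77 and 11.2 ± 0.255 (SD, n = 2 each), 96.5-fold higher with knockdown (log2 fold change 6.47 ± 0.03 SE). With knockdown 36 genes of the whole table had a higher mean FPKM than SERPINB2, and with SCR 5757 had. It took 0.245% of all FPKM with knockdown and 0.00266% with SCR. About 40210 to 40360 reads were behind the knockdown values and about 410 to 460 behind the SCR values.

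Most of the myeloid and epithelial markers, read because PAI-2 is abundant in such cells, were low in both groups, CD68 being the exception. No marker of placenta was read. Of 10 myeloid markers 7 had a value, and they summed to an FPKM of 346 and 364 with knockdown and of 237.72 and 238.05 with SCR. CD68, a lysosomal protein that many cell types make, gave most of this sum and was higher with knockdown, at 357.45 and 339.95 against 230.34 and 230.64 (log2 fold change 0.59, limma adjusted p = 0.00105, at most 0.0375 over the other settings). The remaining myeloid markers summed to 6.25 and 6.90 with knockdown and to 7.38 and 7.41 with SCR. The part of myeloid cells in the SERPINB2 difference was not tested. AIF1, FCGR3A and TYROBP had no value, and PTPRC, which defines leukocytes, was at or below 0.86. Of 10 epithelial markers 8 had a value, summing to 3.99 and 4.40 with knockdown and to 2.44 and 3.19 with SCR. Without CLDN7, the highest of them, the rest summed to 1.54 to 1.76 with knockdown and to 1.61 to 1.87 with SCR. The basal keratins KRT5 and KRT14 were at or below 0.22. The growth protocol in the labels names hCMEC/D3, a brain endothelial line, yet the endothelial markers summed to 4.03 to 4.57 with knockdown and to 4.72 and 4.77 with SCR, with CDH5 and CLDN5 at or below 0.03. Of 10 glioma and astrocyte markers 9 had a value, but GFAP did not exceed 0.55 and S100B 0.05 in any library, and AQP4 had none. Their sum was 4611 to 4815 with knockdown and 2037 to 2122 with SCR, most of it from VIM, which is shared with many mesenchymal cells and was 2.38-fold higher with knockdown (limma adjusted p = 0.000376, at most 0.0232 over the other settings). Without VIM the sum went the other way, 46.8 to 48.6 with knockdown and 119 to 124 with SCR. NES, SOX9 and CHI3L1 were 4.18-fold, 3.71-fold and 2.99-fold lower with knockdown (limma adjusted p = 0.000407, 0.000248 and 0.000344). SLC1A3, a glial glutamate transporter, was 1.69-fold higher with knockdown (limma adjusted p = 0.000825). OLIG2 was at 1.15 and 0.91 against 0.54 and 0.50 (adjusted p = 0.0117, up to 0.144 when 1 library was left out).

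SERPINE2 encodes protease nexin-1, a secreted inhibitor of thrombin, uPA, tPA and plasmin that glial cells are known to make. Its FPKM was 110.78 and 114.69 with knockdown and 653.14 and 644.17 with SCR. Both SCR libraries were thus above both knockdown libraries, 5.75-fold in the mean (113 ± 2.76 against 649 ± 6.34, SD, n = 2 each, log2 fold change -2.51 ± 0.03 SE). With SCR only 56 genes of the table had a higher mean FPKM, and with knockdown 632 had. SERPINE2 (Gene ID 5270) spans chr2:223975048-224039319 on the minus strand.

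SERPINB6, an intracellular inhibitor of trypsin-like proteases and of cathepsin G, had an FPKM of 48.7 and 49.08 with knockdown and of 96.35 and 94.15 with SCR. The knockdown libraries were the lower ones, 1.95-fold in the mean (48.9 ± 0.269 against 95.3 ± 1.56, SD, n = 2 each). Its log2 fold change of -0.95 ± 0.03 (SE) lay just short of 2-fold, and quantile normalization took it to -1.05. SERPINB6 has 8 transcripts in the files (Gene ID 5269, chr6:2948159-2972165, minus strand).

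SERPINB8, an inhibitor of the proprotein convertase furin, had an FPKM of 22.43 and 23.42 with knockdown and of 18.61 and 18.43 with SCR. This was the smallest difference of the members, with the knockdown libraries 1.24-fold higher in the mean (22.9 ± 0.70 against 18.5 ± 0.127, SD, n = 2 each, log2 fold change 0.29 ± 0.04 SE). SERPINB8 (Gene ID 5271, chr18:63970029-63989374, plus strand) shares 370 exon bases with HMSD on the same strand. The FPKM of HMSD was 5.01 and 2.89 with knockdown and 5.58 and 4.94 with SCR, so the counts of both genes are uncertain to that extent. SERPINB8 also shares 257 exon bases with AC009802.1 on the opposite strand, which had no value. As for PLAU, reads of that pair may be mixed if they were not counted by strand.

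**Figure D2:**
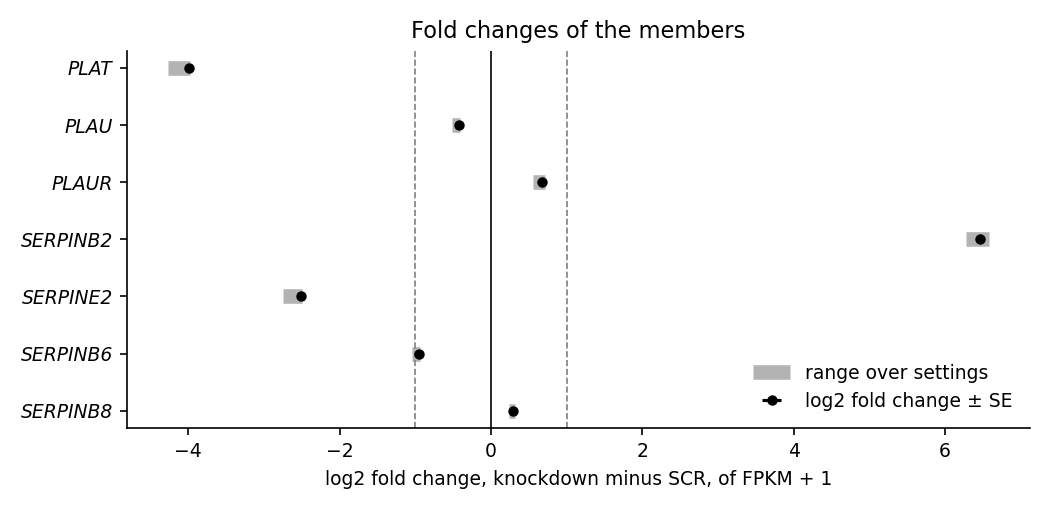
Log2 fold changes of the 7 members, PTPRN knockdown minus SCR, on log2(FPKM + 1), as black points with the standard error (smaller than most points), grey bars for the range over 10 ways of processing, and dashed lines at 2-fold. SERPINB2 stands at 6.47, PLAT at -3.99 and SERPINE2 at -2.51, and the range of SERPINB6 reaches the dashed line.

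On the FPKM scale the order of the members also differed between the groups. With SCR the order from the highest level was SERPINE2, SERPINB6, PLAT, PLAU, PLAUR, SERPINB8 and SERPINB2. With knockdown it was SERPINB2, SERPINE2, PLAUR, PLAU, SERPINB6, SERPINB8 and PLAT, so that the last gene of one group was the first of the other. Replicates of a group differed by at most 1.06-fold for any member. In the SCR group PLAU and PLAUR were neighbours whose libraries came close, the lowest PLAU value being 68.54 and the highest PLAUR value 67.96. In the knockdown group SERPINE2 and PLAUR lay at 110.78 and 114.69 against 107.4 and 104.09, and PLAU and SERPINB6 at 51.31 and 51.46 against 48.7 and 49.08. None of these neighbours overlapped. PLAU and PLAUR with SCR, and SERPINE2 and PLAUR with knockdown, were separated by no more than the spread between libraries, whereas PLAU and SERPINB6 with knockdown were separated by more than theirs.

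The inhibitors SERPINB2 and SERPINE2 had summed levels that moved far less than either gene. Together they gave an FPKM of 1195.2 and 1195.19 in the knockdown libraries and of 664.54 and 655.21 in the SCR libraries. SERPINB2 made up 90.6% of that sum with knockdown and 1.70% with SCR. The ratio of the summed inhibitors to PLAT plus PLAU was 21.6 ± 0.0195 with knockdown and 4.51 ± 0.0320 with SCR (SD, n = 2 each), and both knockdown libraries were above both SCR libraries. These are ratios of transcript levels, and neither protein nor protease activity was measured.

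**Figure D3:**
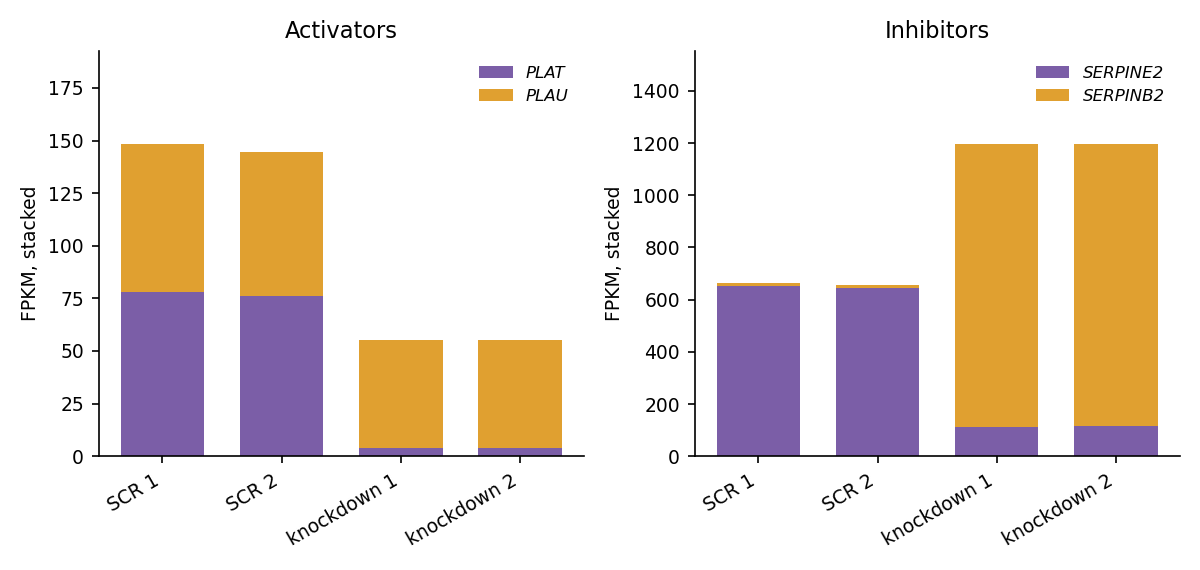
Stacked FPKM in each library of the activators PLAT and PLAU (left) and of the inhibitors SERPINE2 and SERPINB2 (right), on linear axes that start at 0 and differ in range. The mean height of the activator bars is 146 with SCR and 55.3 with PTPRN knockdown, where PLAT is a thin band, and the larger part of the inhibitor bars is SERPINE2 with SCR and SERPINB2 with knockdown.

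SERPINB2 and SERPINB8 lie in the cluster of clade B serpin genes on chromosome 18, and the genes around them were read in their order along the chromosome. SERPINB7, a serpin best known from kidney mesangium and skin that ends 82.3 kb before SERPINB2, had an FPKM of 74.53 and 75.03 with knockdown and of 16.43 and 17.18 with SCR (log2 fold change 2.09, limma adjusted p = 0.000175, at most 0.0229 over the other settings). Both knockdown libraries were the higher ones, 4.45-fold in the mean. On the other side SERPINB10, 4.10 kb away, had 0.72 and 0.74 with knockdown and 0.19 and 0.33 with SCR (0.46, adjusted p = 0.00733), and it shares 547 exon bases with SERPINB2 in GENCODE 29, so that its reads cannot be fully separated from those of SERPINB2. Without 1 of the libraries its adjusted p reached 0.106. HMSD between SERPINB10 and SERPINB8 overlapped between the groups (-0.37, adjusted p = 0.272).

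Before SERPINB7 along the chromosome, SERPINB4 had an FPKM of 2.83 and 2.24 with knockdown and of 0.18 and 0.33 with SCR. Its log2 fold change was 1.49 (limma adjusted p = 0.00145), and 1.37 to 2.92 over all settings. SERPINB3 had 0.25 and 0.39 with knockdown and 0.03 and 0 with SCR (0.38, adjusted p = 0.0122, up to 0.144 when 1 library was left out). These genes are near-identical copies, so that short reads may be split between them and their values are uncertain. SERPINB12, SERPINB13 and SERPINB11 were at or below 0.15 in every library. CDH7, the next gene after SERPINB8 at 1761 kb, was lower with knockdown (0.38 and 0.39 against 1.06 and 1.21, -0.62, adjusted p = 0.00144). The higher levels with knockdown were thus unequal along the cluster, 96.5-fold for SERPINB2, 4.45-fold for SERPINB7 and 1.24-fold for SERPINB8. Among the genes at low FPKM, SERPINB4 was 9.94-fold, SERPINB3 21.3-fold and SERPINB10 2.81-fold higher, so the size did not follow the distance from SERPINB2.

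**Figure D4:**
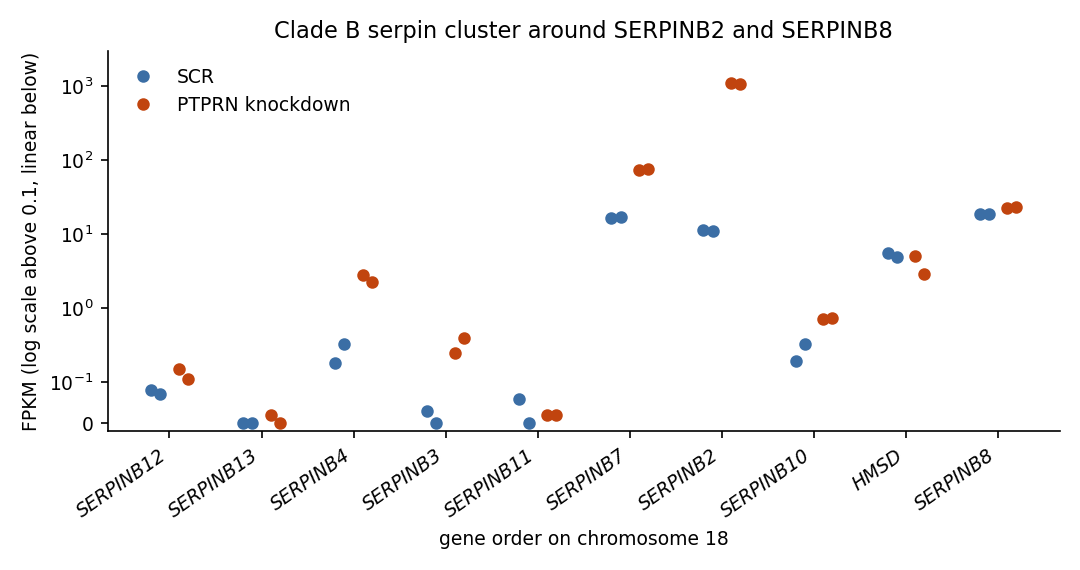
FPKM of 10 genes in their order along chromosome 18, on an axis that is logarithmic above 0.1 and linear below, with blue points for SCR and orange points for PTPRN knockdown (2 libraries each). SERPINB2 and SERPINB7 are higher in both knockdown libraries, SERPINB8 nearly level, and SERPINB12, SERPINB13 and SERPINB11 close to 0.

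SERPINB6 lies in the smaller clade B cluster on chromosome 6. Its neighbours SERPINB1, an inhibitor of neutrophil proteases, and NQO2, a quinone reductase, were also lower with knockdown. SERPINB1 had an FPKM of 14.44 and 14.74 with knockdown and of 22.46 and 23.9 with SCR (log2 fold change -0.63, limma adjusted p = 0.00118, at most 0.0387 over the other settings). NQO2 had 17.36 and 17.08 against 25.33 and 23.43 (-0.48, adjusted p = 0.00307, up to 0.0648 when 1 library was left out). SERPINB9, the granzyme B inhibitor that lies between SERPINB1 and SERPINB6, was at or below 0.28 in every library (adjusted p = 0.0631). Beyond SERPINB1, WRNIP1, an ATPase that binds the Werner helicase, had 9.34 and 9.22 against 22.98 and 23.38 and was 2.50-fold lower (-1.23, adjusted p = 0.000266). Beyond NQO2, RIPK1 was 1.70-fold lower (-0.69, limma adjusted p = 0.00162) and BPHL 2.28-fold lower (-0.92, adjusted p = 0.00109). Lower levels were thus not limited to the serpins of this stretch.

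The genes with the most similar values were looked for among 6257 genes whose FPKM averaged 10 or more, by Euclidean distance over the 4 libraries of log2(FPKM + 1) centred on the SCR mean. For PLAT these were MRGPRF (distance 0.0174), COL1A1 (0.0768) and WISP1 (0.117), of which COL1A1, a collagen I chain, had an FPKM of 31.32 and 33.15 with knockdown and of 525.01 and 515.09 with SCR. For SERPINB2 they were IL36RN (0.349), IL1B (0.684) and IL36B (1.01), all further away than the neighbours of any other member. For SERPINE2 they were LRRC17 (0.0163), STAC2 (0.0498) and SYNPO (0.0776). With 4 libraries in 2 groups the distance mostly compares sizes of 1 difference. The members with small differences accordingly had closest neighbours at 0.0114 for SERPINB8 (UBE2R2), 0.0186 for PLAUR (SPAG5), 0.0188 for PLAU (C6orf106) and 0.0257 for SERPINB6 (SBSN).

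The rest of the system was read from 7 lists, which together held 118 genes, 107 of them with a value. Differential here means a 2-fold or larger change together with a limma adjusted p no higher than 0.001, which held upward for 2.63% and downward for 4.06% of the 16595 genes tested. By this rule 6 of the 107 list genes were higher and 19 lower with knockdown. At an adjusted p of at most 0.05 with no minimum fold, 24 were higher and 44 lower, beside 57.9% of all genes in either direction. The lists were chosen with earlier results of these data known. No list gene was differential by limma when any 1 of the 4 libraries was left out, although 65 to 68 of them then had an unadjusted p under 0.05 and 7 to 8 higher and 19 lower had a fold change of at least 2 with an adjusted p of at most 0.05.

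Among genes of plasmin generation and control, 18 of 20 had a value, of which 1 was differential and higher and none lower, with a median log2 fold change of -0.01 against 0.01 over all genes. The transcript of the substrate was close to 0: PLG, which encodes plasminogen, was at or below 0.08 in all 4 libraries and overlapped between the groups (-0.02, limma adjusted p = 0.774). The differential gene was THBD, which encodes thrombomodulin, the endothelial cofactor that turns thrombin toward protein C. It had an FPKM of 8.36 and 7.78 with knockdown and of 0.39 and 0.24 with SCR (2.79 ± 0.07 SE, adjusted p = 0.000304). Both knockdown libraries were far above both SCR libraries.

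Plasminogen docking proteins on the cell surface differed in direction. PLGRKT, the plasminogen receptor with a C-terminal lysine, had an FPKM of 33.22 and 37.22 with knockdown and of 16.59 and 15.32 with SCR (log2 fold change 1.09, limma adjusted p = 0.00122, at most 0.0449 over the other settings). ANXA2, which with S100A10 binds tPA and plasminogen, had 1746.21 and 1666.74 against 1266.02 and 1248.16 (0.44, adjusted p = 0.00199, at most 0.0474). Its partner S100A10 was slightly lower at 596.95 and 575.44 against 657.52 and 668.97 (-0.18, adjusted p = 0.0181, up to 0.109 when 1 library was left out). ENO1 of the same list was lower as well, at 1689.29 and 1658.74 with knockdown against 2075.73 and 2007.37 with SCR (-0.29, limma adjusted p = 0.00463). The plasmin inhibitors SERPINF2 and A2M were at or below 0.08 or without a value.

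Of the 25 genes of uPA receptor partners and clearance, all had a value, 6 were differential and lower and none higher, and the median log2 fold change was -0.38. FPR1, a formyl peptide receptor that cleaved uPA receptor is known to engage, had an FPKM of 2.55 and 4.12 with knockdown and of 60.6 and 61.53 with SCR (-3.86 ± 0.20 SE, limma adjusted p = 0.000664). SRPX2, a secreted ligand of the uPA receptor, had 8.53 and 7.93 against 81.77 and 78.1 (-3.13 ± 0.05 SE, adjusted p = 0.000166). MRC2, the collagen endocytic receptor that associates with it, had 9.66 and 10.22 against 41.58 and 40.53 (-1.94 ± 0.04 SE, adjusted p = 0.000242).

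The other 3 differential genes of this list were integrins that pair with or signal beside the receptor, namely ITGA3 (3.28-fold lower), ITGA5 (2.17-fold lower) and ITGB5 (2.16-fold lower). ITGB3, the beta chain of a vitronectin receptor, lay the other way at 65.29 and 71.45 with knockdown against 47.72 and 49.74 with SCR (0.48, limma adjusted p = 0.00486, up to 0.0892 when 1 library was left out). LRP1, which takes up complexes of activators with their inhibitors, had an FPKM of 64.96 and 69.1 with knockdown and of 87.63 and 87.73 with SCR (-0.38 ± 0.04 SE, adjusted p = 0.00375). It was lower in both knockdown libraries, but without SCR replicate 1 or 2 the adjusted p was 0.0708 and 0.0701. The 6 differential genes kept an adjusted p of at most 0.0401 whichever library was left out.

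Of the 15 listed substrates of plasmin and its activators, 14 had a value, 6 were differential and lower and 1 higher, with a median log2 fold change of -0.54. FN1, which encodes fibronectin, had an FPKM of 51.63 and 51.54 with knockdown and of 417.39 and 424.73 with SCR (-3.00 ± 0.03 SE, limma adjusted p = 0.000124). THBS1, thrombospondin-1, had 0.73 and 0.75 against 7.42 and 8.06 (-2.33 ± 0.05 SE, adjusted p = 0.000239). HGF, hepatocyte growth factor, whose precursor is cut by serine proteases, was the gene in the other direction at 9.2 and 11.07 against 0.49 and 0.58 (2.85 ± 0.10 SE, adjusted p = 0.000385). The fibrinogen genes FGA, FGB and FGG were at or below 0.12 in every library.

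**Figure D5:**
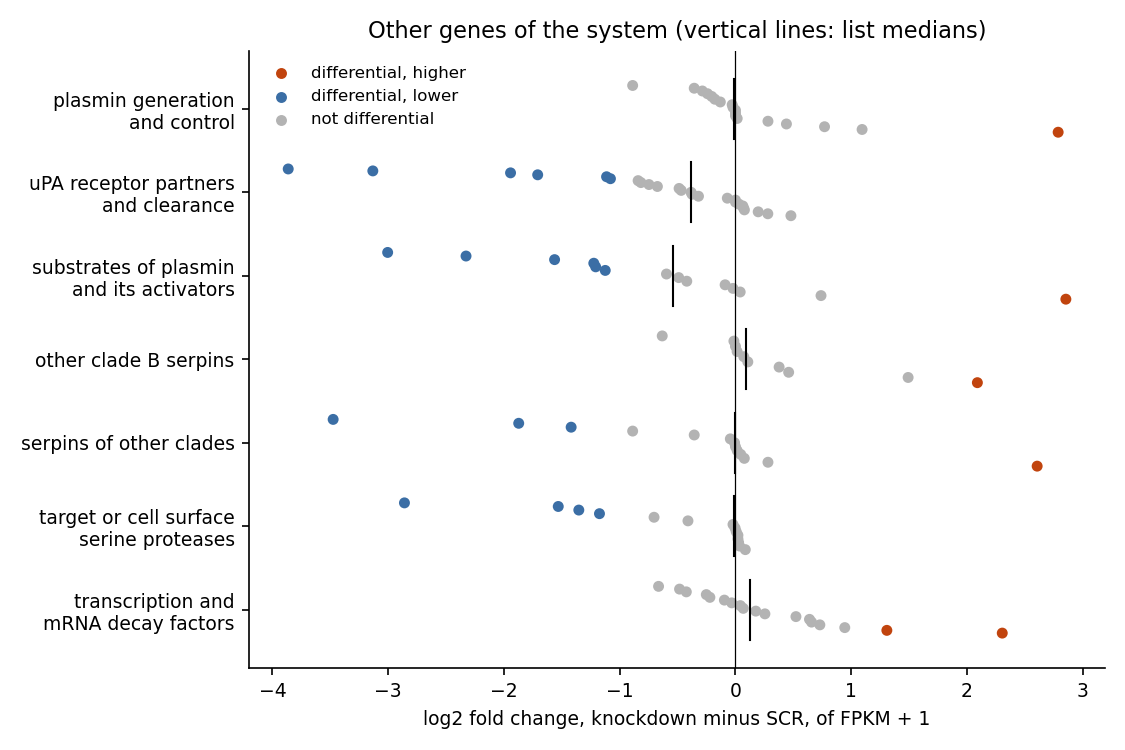
Log2 fold changes, PTPRN knockdown minus SCR, on log2(FPKM + 1), of every gene with a value in the 7 lists, with a short vertical line at the median of each list. Orange points are differential and higher, blue points differential and lower, and grey points neither, and the medians of the receptor partners (-0.38) and of the substrates (-0.54) lie left of 0.

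Among the other clade B serpins all 10 had a value and 1 was differential, namely SERPINB7 of the chromosome 18 cluster, and the median log2 fold change was 0.09. Of the 16 serpins of other clades 13 had a value, with 1 differential and higher, 3 lower and a median of -0.01. SERPINA1, alpha-1 antitrypsin, had an FPKM of 0.58 and 0.66 with knockdown and of 17.43 and 16.61 with SCR (-3.48 ± 0.05 SE, limma adjusted p = 0.000149). SERPIND1, heparin cofactor II, had 11.1 and 9.48 against 0.71 and 1 (2.61 ± 0.12 SE, adjusted p = 0.000544). SERPINA6, which carries cortisol, had 0.23 and 0.38 against 3.48 and 4.08 (-1.87 ± 0.09 SE, adjusted p = 0.000659), and SERPINH1, a collagen chaperone, was 2.73-fold lower.

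A list of serine proteases, some inhibited by member serpins and others at the cell surface or secreted, had a value for 14 of 19 genes. Of these, 4 were differential, all lower. HTRA1, a secreted matrix protease, had an FPKM of 75.9 and 74.68 with knockdown and of 559 and 546.47 with SCR (-2.86 ± 0.03 SE, limma adjusted p = 0.000139). PRSS23 was 3.10-fold lower (-1.53 ± 0.07 SE, adjusted p = 0.000591) and FAP, a protease of fibroblasts and of some gliomas, was 2.66-fold lower (-1.35 ± 0.04 SE, adjusted p = 0.000332). DPP4, the fourth, was 2.33-fold lower. Of the known targets of the members, CTSG, which SERPINB6 inhibits, had no value, and FURIN, which SERPINB8 inhibits, overlapped between the groups at about 34 FPKM (adjusted p = 0.940).

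The last list held 18 transcription and mRNA decay factors known at PLAU, PLAUR or SERPINB2, all with a value, of which 2 were differential and higher and none lower, with a median log2 fold change of 0.12. Both encode Fos proteins, which form AP-1 with Jun partners, but genes of these families lay in both directions. FOSL1 had an FPKM of 566.46 and 583.54 with knockdown and of 116.61 and 114.53 with SCR (2.30 ± 0.03 SE, limma adjusted p = 0.000153), 4.98-fold higher. FOSB was low in both groups, at 2.71 and 2.46 against 0.36 and 0.54 (1.31 ± 0.08 SE, adjusted p = 0.000945). FOSL2, another Fos gene, was lower with knockdown, at 41.23 and 42.71 against 66.76 and 67.42 (-0.66, adjusted p = 0.000664, at most 0.0273 over the other settings). Among the Jun partners JUNB was higher at 52.75 and 52.8 against 26.92 and 26.97 (0.94, adjusted p = 0.000336), just short of 2-fold, JUND was lower at 127.22 and 124.66 against 152.99 and 147.35 (-0.25, adjusted p = 0.00730, up to 0.0699 when 1 library was left out), and JUN overlapped at 97.58 and 90.44 against 95.77 and 96.41 (adjusted p = 0.622). Whether these levels bear on the promoters shown above was not tested.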

How the data were processed

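The 4 U87 libraries were read on a BGISEQ-500 (single-end, read length 50). The authors deposited FPKM values per gene and library in a pair of tables with identical values (66380 compared). HISAT2 2.1.0 and hg19 are named in the submitters' processing notes, but the gene positions in the table lie on GRCh38, and the counting program and annotation are not given in the sources used here. The tables also hold the authors' own comparisons (fold changes, p- and q-values, means), which were not used. No counts were used. From the steps between low FPKM values, depth was estimated at 17200000 to 18700000 reads per library. Reads behind a value were estimated from its FPKM, these steps and the longest transcript of the gene. They are too high where shorter transcripts carry the signal.

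Every gene above 0 in at least 1 library (16595) was tested with limma 3.58.1 (R 4.3.3) on log2(FPKM + 1), with group as the only term and Benjamini-Hochberg adjustment over all of them. A gene was differential at 2-fold or more and an adjusted p up to 0.001. The members, gene lists and tests were chosen with earlier results of these data known. Genes named are the members, PTPRN, PLG, LRP1, the 3 largest log2 fold changes among differential genes of each list (mean FPKM 1 or more in the higher group), the genes beside the clade B members, and the 3 nearest genes of each member. A gene that this rule also picks is not reported here. Other list and marker genes named, and the printed stretches of promoters, were chosen after their values were seen. Overlapping genes were taken from GENCODE 29. Same-numbered libraries did not deviate together (correlation 0.0635 over 11272 genes), so the numbers were not taken as pairs. Alternatives were quantile normalization, a pseudocount of 0.1, median-ratio scaling, a filter at FPKM 1 in 2 libraries, a replicate block, a trend in the variance prior, TPM for levels, and leaving out each library.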

Additional observations from a re-analysis of the deposited data

How the results depend on the processing

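No member changed direction over the settings tried. The log2 fold change ranged from -4.26 to -3.97 for PLAT, -0.51 to -0.41 for PLAU, 0.56 to 0.71 for PLAUR, 6.28 to 6.58 for SERPINB2, -2.75 to -2.49 for SERPINE2, -1.05 to -0.93 for SERPINB6 and 0.24 to 0.32 for SERPINB8. PLAT plus PLAU with knockdown was 0.378 of the SCR level, 0.361 as TPM and 0.373 to 0.382 with 1 library left out. The count of differential genes depends on the p threshold of 0.001. It was 1111 over the whole table and 6 higher and 19 lower in the lists, and 0 by limma in each of these with a pseudocount of 0.1, with the replicate number as a block, and with any 1 library left out (0 to 0). The lowest adjusted p was then 0.00122, 0.00396 and about 0.0226 to 0.0229, and 10185, 10108 and 8700 to 8790 genes had an unadjusted p under 0.05. In the lists 12 higher and 24 lower genes with the pseudocount of 0.1, and 8 and 19 with the block, had a fold change of at least 2 at an adjusted p of at most 0.05. The numbers did not pair the libraries, so calls lost with the block are not read as weaker effects. Quantile normalization, median-ratio scaling, the minimum FPKM and the trend gave 1139, 1134, 1289 and 1168 differential genes. Of 189 values for 19 named genes outside the members, 185 kept their direction and side of 0.05. These were PTPRN, PLG, LRP1 and the list genes picked for the largest changes among differential ones, so they do not stand for all genes named. Several others named above did not keep their side of 0.05 with 1 library left out, as given there. LRP1, which was not differential, kept its log2 fold change without SCR replicate 1 (-0.384) or 2 (-0.382) but not its side of 0.05. PLG, near 0 throughout, had -0.070 to 0.028 with 1 library left out. It changed sign without knockdown replicate 1 (0.028) and without SCR replicate 2 (0.020). The depth of about 210 reads for PLAT with knockdown limits its low value, and genes below about 0.1 FPKM rest on few reads.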
